A study of Gallus gallus with 4 samples.

Results

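The NF-kappa B family was followed through the loss of the nuclear actin-related protein Arp6 in DT40, a chicken line derived from a B cell lymphoma. The family was taken as 8 genes by name, REL, RELA, RELB, NFKB1, NFKB2, NFKBIA, NFKBIE and TNFAIP3, and every probe set whose single gene symbol in the platform annotation was one of these names was used. This gave 10 probe sets for 7 genes, out of 13009 genes with a probe set of their own symbol. RELB had no probe set under its name and was not analysed here. Of the 7 genes, 5 were bright enough to be among the 8026 genes tested, namely REL, NFKB1, NFKB2, NFKBIA and NFKBIE, while RELA and TNFAIP3 were not.

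NF-kappa B proteins are dimers of subunits that share a DNA-binding Rel homology domain. In resting cells inhibitor proteins of the I kappa B type hold the dimers in the cytoplasm, and kinases that answer to antigen, cytokine and TNF family receptors mark the inhibitors for destruction, so that the dimers enter the nucleus. In B cells the REL subunit, NFKB1 and NFKB2 serve survival and proliferation, and the inhibitor genes NFKBIA and NFKBIE and the NFKB2 gene are themselves known targets of the pathway in mammals.

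In the cells studied the chromosomal ARP6 gene was disrupted by hisD and puro cassettes that replaced part of the exons, and Arp6 came from a tetracycline-responsive transgene. The 4 arrays were a culture without tetracycline (day 0, Arp6 on) and cultures kept in tetracycline at 2 ug/ml for 2, 4 and 6 days (Arp6 off), with 1 array for each day, all from conditional knockout cells. No array came from DT40 cells without the disruption or from cells held longer without tetracycline, so Arp6, the drug and time in culture cannot be told apart. With 1 array per day no ratio has a replicate error, and the small number of arrays sets the precision of all that follows.

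ACTR6, the gene for Arp6, checked the labels. Its probe set with the higher mean gave scaled signals of 7002 at day 0 and 318, 331 and 383 at days 2, 4 and 6. The other read 7086 at day 0 and 4.32, 29.7 and 8.39 afterwards, so the signal left after day 0 differed between the probe sets. All signals below are scaled so that the arrays share 1 median, and they are in arbitrary units that do not allow one probe set to be set against another. In bulk cultures fewer cells of a type and less RNA per cell cannot be told apart. The background of an array is the 95th percentile of its 59 unspiked control probe sets, which was 25.4, 24.9, 32.1 and 45.9 at days 0, 2, 4 and 6. The higher background at day 6 bears on every dim gene below. Of the 13 B cell markers listed, 9 had a probe set, and all 9 were above background at days 0, 2 and 4 and 8 at day 6, all but EBF1. Their summed signal was 14575 at day 0 and 10522, 8302 and 7301 at days 2, 4 and 6. The sum adds probe sets that cannot be set against each other, so it leans on the brightest and is not an amount of marker RNA. JCHAIN alone made up 4242 of it at day 0 and 4642.5 at day 6. CD74 made up 3110 of it at day 0 and 96.3 at day 6.

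Of REL and RELA, REL was the one with a probe set above background on all 4 arrays. REL encodes c-Rel, a subunit with its own activation domain that is prominent in lymphocytes. Its brightest probe set read 413 at day 0, 361 at day 2, 379 at day 4 and 319 at day 6, above background on all 4 arrays. All 3 later arrays were below day 0, and the step from day 4 to day 6 was 1.19-fold. The log2 ratios to day 0 were -0.19, -0.12 and -0.37 at days 2, 4 and 6, and at day 4 the sign turned to 0.24 when the arrays were scaled to their spike-in controls. The other 2 REL probe sets could not bear on this. One read 24.4, 31.7, 2.16 and 24.5 and was above background at day 2 alone, and the other read 16.9, 9.04, 7.24 and 27.3 and was above background on no array.

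RELA encodes p65, the activating subunit of the most widespread NF-kappa B dimer. Its single probe set read 4.09, 5.49, 6.52 and 2.53 at days 0, 2, 4 and 6. These values lay below background on all 4 arrays, so no direction is given for RELA, and a signal not above background does not show that the gene was silent.

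NFKB1 encodes a precursor that is processed to the DNA-binding subunit p50. Its probe set read 206 at day 0, 181 at day 2, 147 at day 4 and 135 at day 6, above background throughout. With the scaling used each array was below the one before it. With spike-in scaling the day 4 ratio, -0.13 on the log2 scale, was nearer to day 0 than the day 2 ratio of -0.28. NFKB1 was 1.14-fold, 1.41-fold and 1.52-fold lower than day 0 at the 3 later days, which is -0.18, -0.49 and -0.61 on the log2 scale. The sign of these ratios was the same under the other 4 scalings at each day, with a range of -1.08 to -0.39 at day 6. The remaining alternatives could not turn it. The changed filters, floors and counted probe sets left the ratios as they were, and a pseudocount keeps the sign.

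NFKB2 encodes the precursor of p52, which is processed in the noncanonical branch that receptors such as CD40 switch on. Its probe set was dim. It read 42.1 at day 0, 24.3 at day 2, 56.7 at day 4 and 24.2 at day 6. The day 0 and day 4 arrays were high and the day 2 and day 6 arrays were low and below background. At day 2 NFKB2 was therefore no less than 1.69-fold under day 0, written as at least 1.69-fold lower, the bound being the day 0 signal over the day 2 background, and it was 1.35-fold higher at day 4. At day 6 the background lay above the day 0 signal, so no fold is given for that day. With the floor raised to the 60th percentile the NFKB2 ratios at days 2 and 6 became 0, as both signals of each ratio then lay at the floor.

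**Figure D1:**
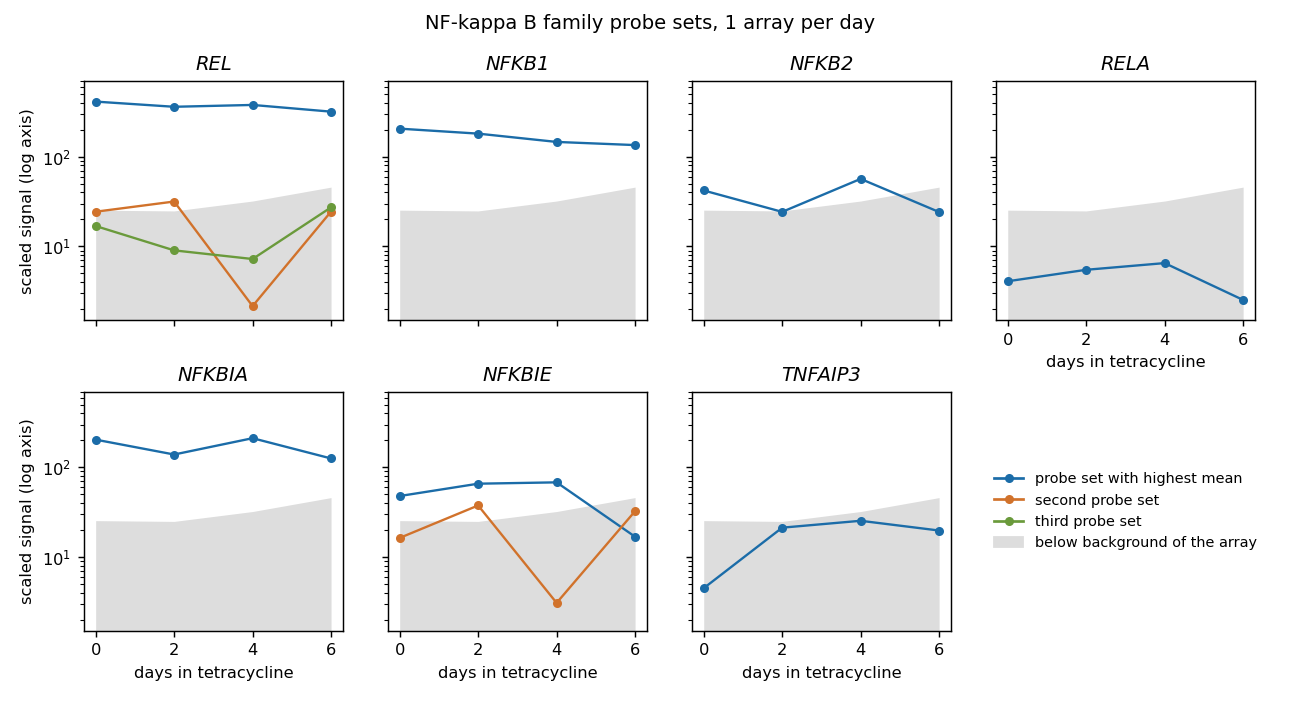
Scaled signal (log axis) of all 10 probe sets of the 7 measured family genes at days 0, 2, 4 and 6 of tetracycline, 1 array per day, with points joined by lines for each probe set and grey marking values below the background of the array. REL, NFKB1 and NFKBIA each have 1 probe set above the grey area at all 4 days, while RELA and TNFAIP3 lie inside it throughout.

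The inhibitor genes did not share a single course. NFKBIA encodes I kappa B alpha, which the pathway induces and which in turn takes NF-kappa B out of the nucleus. It read 203 at day 0, 139 at day 2, 211 at day 4 and 125 at day 6, above background on all 4 arrays. The arrays of days 2 and 6 were low and those of days 0 and 4 were high, with ratios 1.47-fold lower, 1.04-fold higher and 1.62-fold lower than day 0 at the 3 later days. On the log2 scale these were -0.55, 0.05 and -0.70. The small day 4 value turned to -0.19 with the deposited values unscaled, and the day 2 and day 6 values kept their sign under the other 4 scalings. The remaining alternatives could not turn the sign of a gene this far above the floor.

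NFKBIE encodes I kappa B epsilon, an inhibitor with a known role in B cells of mice. Its brighter probe set read 47.8, 65.6 and 67.9 at days 0, 2 and 4 and 16.8 at day 6. The first 3 arrays were above background and the day 6 array was below it. The gene was 1.37-fold higher at day 2 and 1.42-fold higher at day 4 than at day 0. At day 6 the log2 ratio, with the low signal raised to the floor, was -1.30, but against the day 6 background of 45.9 this came to a bound of at least 1.04-fold lower than day 0 and at least 1.48-fold lower than day 4. The second NFKBIE probe set read 16.3, 37.5, 3.07 and 32.4 at days 0, 2, 4 and 6, above background at day 2 alone, where it was at least 1.47-fold higher than at day 0. At day 6 it carries no fold, being below background at both ends of that ratio.

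TNFAIP3 encodes A20, an enzyme that edits ubiquitin chains on signalling adaptors and so ends NF-kappa B signalling. Its probe set read 4.48, 21.2, 25.3 and 19.7 in order of days. The day 0 array was the lowest, but all 4 signals lay below background, so these values carry no fold and no direction.

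Seen together, 0 of the 5 tested family genes were at least 2-fold higher than day 0 at day 2, 4 or 6, where 2.42%, 5.77% and 8.48% of all tested genes were. At least 2-fold lower were 0 at day 2, 0 at day 4 and 1 at day 6, NFKBIE, against 2.97%, 5.12% and 8.35% of all tested genes. The 1 call rested on a signal below background. It was lost with the filter at the 75th percentile, the floor at the 60th percentile, a pseudocount or a 3-fold threshold. With the deposited values unscaled 4 family genes were at least 2-fold lower at day 6, all but REL, as that choice moved the median of all tested genes to -0.48 on the log2 scale at that day, from -0.01 after scaling.

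The 5 genes had median log2 ratios of -0.19, 0.05 and -0.70 at days 2, 4 and 6, beside -0.01, 0.0033 and -0.01 for all tested genes. At day 6 the log2 ratios of all 5 lay below 0, as those of 50.7% of all tested genes did. The NFKB2 and NFKBIE signals were below background at that day, and NFKB2 carried no fold. Only REL, NFKB1 and NFKBIA had day 6 signals above background. At day 2 all but NFKBIE lay below day 0, and at day 4 REL and NFKB1 did. The 3 ratios share the day 0 array, so they are not separate observations. The same 5 signs at day 6 were seen with the other 4 scalings, and the sizes differed, from -0.15 with spike-in scaling to -0.84 unscaled for REL and from -0.47 to -1.17 for NFKBIA. The floor mattered too. With the floor at the 60th percentile the day 6 ratio of NFKB2 became 0 and that of NFKBIE -0.14. The family median at day 6 was then -0.37, and with a pseudocount it was -0.52. Scaling also decided the balance over all tested genes. At day 6, 681 genes were at least 2-fold higher and 670 lower with the scaling used, 263 and 1603 unscaled, and 985 and 471 with spike-in scaling. At day 4 the counts were 463 and 411, 286 and 740, and 1016 and 198, and at day 2 they were 194 and 238, 147 and 403, and 152 and 298.

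**Figure D2:**
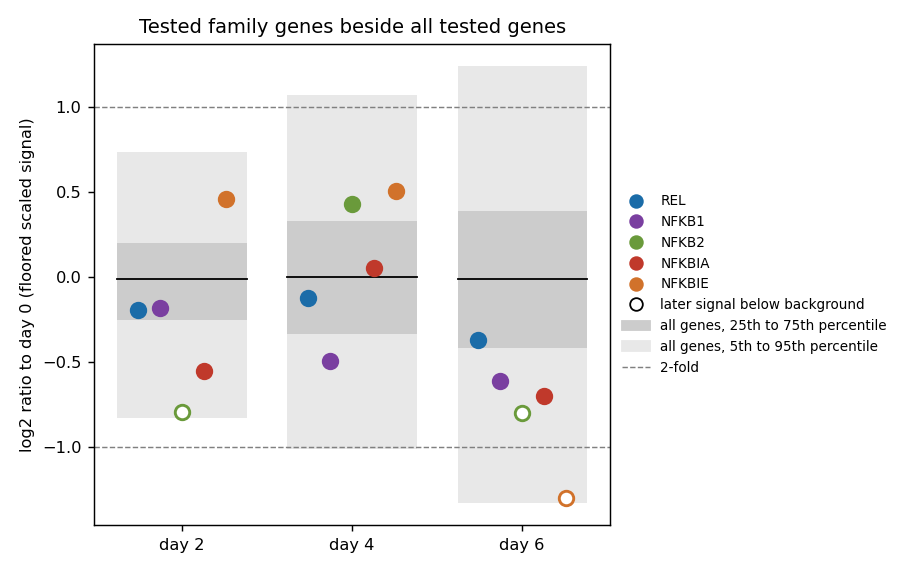
Log2 ratio of the floored scaled signal to day 0 (vertical axis) for the 5 tested family genes at days 2, 4 and 6, with grey boxes for the middle of all 8026 tested genes, a black line for their median, and dashed lines at a 2-fold difference. Open circles mark a later signal below background, and at day 6 all 5 genes lie below 0, with NFKBIE at -1.30 beyond the lower dashed line.

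**Figure D3:**
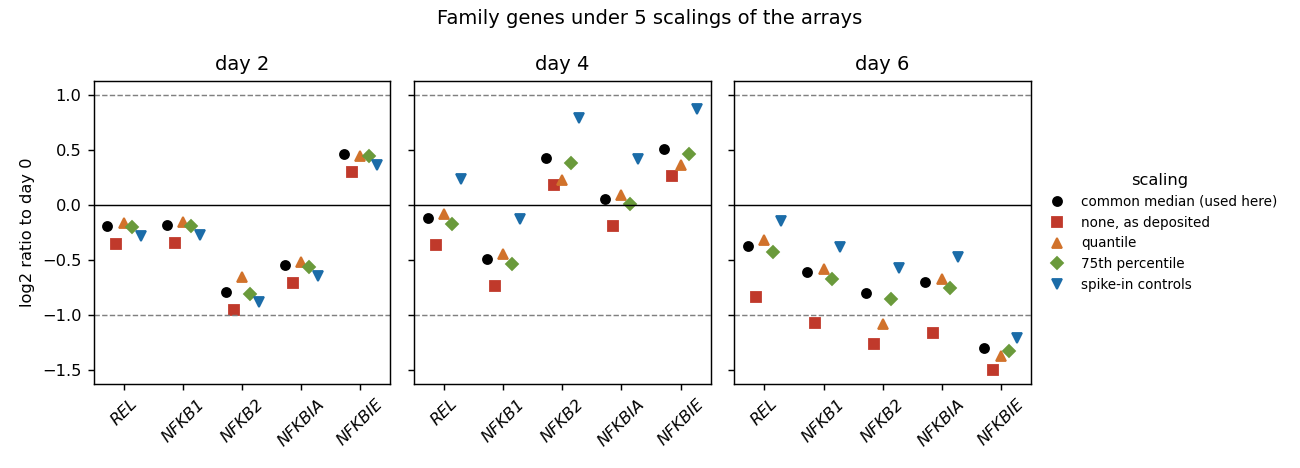
Log2 ratio to day 0 (vertical axis) of the 5 tested family genes at days 2, 4 and 6 under 5 ways of scaling the arrays, each with its own symbol, with dashed lines at a 2-fold difference. Unscaled values are the lowest for NFKBIA at each day, at -0.71, -0.19 and -1.17, and the sign of REL at day 4 and of NFKBIA at day 4 depends on the scaling.

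The test run was a straight line over days, fitted with limma to all 8026 genes at 4 arrays. Its SE and p rest on departure from that line, moderated over genes, and not on replicates. At an adjusted p under 0.05 it called 0% of the tested genes, and 1480 had an unadjusted p under 0.05. NFKB1 had the lowest p of the family, with a slope of -0.11 per day on the log2 scale (SE 0.035) and an adjusted p of 0.24, limma with Benjamini-Hochberg adjustment. The slope of NFKBIE was -0.19 per day (SE 0.13, limma adjusted p = 0.49), that of NFKBIA -0.07 (SE 0.071, limma adjusted p = 0.61), that of NFKB2 -0.06 (SE 0.12, limma adjusted p = 0.82) and that of REL -0.05 (SE 0.037, limma adjusted p = 0.50). None of the 5 trends passed the threshold, and the slopes of NFKB2, NFKBIA and NFKBIE depended on single arrays. Without day 6 they turned positive, to 0.11, 0.01 and 0.13 per day, and without day 0 they were -0.0015, -0.04 and -0.44. The NFKB2 slope was -0.10 without day 2 and -0.11 without day 4. With limma-trend, which lets the variance prior follow the mean signal, 604 genes were called and again no family gene was, the lowest adjusted p being 0.29 for NFKB1.

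NFKB2 and NFKBIA shared an alternating course that a straight line cannot describe, an order noticed after the values were seen. From day 2 to day 4 NFKBIA was 1.52-fold higher and NFKB2 at least 2.28-fold higher, and from day 4 to day 6 NFKBIA was 1.68-fold lower and NFKB2 at least 1.24-fold lower. REL ran the same way with small steps, 1.05-fold up and 1.19-fold down, but not in the deposited signals, which were 376 at day 2 and 372 at day 4. The order down, up and down from array to array was seen in 17.2% of all tested genes. With every step at least 0.5 on the log2 scale the share was 1.74%, with NFKB2 and NFKBIA among them. NFKB2 met that size through signals below background at days 2 and 6, and its last step is bounded at 1.24-fold only. The pattern was drawn from these same values, so the shares do not test it for either gene. The deposited, unscaled signals of these 2 genes ran in the same order, at 237, 144, 207 and 106 for NFKBIA and 49.0, 25.3, 55.7 and 20.4 for NFKB2. Single arrays at each day leave no measure of how far such a course is array noise.

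The genes nearest in pattern were sought for NFKB1 and NFKBIA, the tested members with the largest absolute mean ratio, by the root mean square difference of the 3 log2 ratios over 7754 genes. Nearest to NFKB1 was TMA7, a gene linked to translation machinery, with signals of 1860.0, 1646, 1302 and 1209 at days 0, 2, 4 and 6 and a difference of 0.016. IBA57, of mitochondrial iron-sulfur cluster assembly, and LRRCC1, a centrosomal protein gene, followed at 0.029 and 0.031. Nearest to NFKBIA were ACAP3, LIMD1 and ZNF821 at 0.080, 0.087 and 0.089. LIMD1, a LIM domain adaptor, also alternated, reading 801, 579, 903 and 508.5 at the 4 days. Only 3 ratios enter each comparison, and the likeness is given as a description.

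Upstream of the family, the list of receptors and adaptors held 21 genes, of which 13 were tested. At least 2-fold higher were TRAF1 at day 2, 0 genes at day 4 and TNFRSF1B at day 6, beside 2.42%, 5.77% and 8.48% of all tested genes. At least 2-fold lower were 0 genes at day 2, TLR7 and TRADD at day 4, and TLR7 and TRAF5 at day 6, beside 2.97%, 5.12% and 8.35%. The list's median log2 ratio was -0.0045, -0.11 and -0.35 at days 2, 4 and 6. TNFRSF1B, the second TNF receptor, read 133 at day 0 and 245, 251 and 283 afterwards, so that all 3 later arrays lay above day 0, by 1.84-fold, 1.89-fold and 2.13-fold. Of its other 3 probe sets 2 were 2.37-fold and 2.16-fold higher at day 6, while the dimmest read 35.2 at day 0 and 3.26 at day 6 and did not follow them.

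TLR7, an endosomal RNA sensor that signals to NF-kappa B through MYD88, read 148 and 79.6 at days 0 and 2, then 4.65 and 15.3. Both late signals were below background, and the day 4 one put TLR7 at least 4.60-fold under day 0. TRAF5, an adaptor of TNF family receptors, read 261, 231, 196 and 14.9, the last value being at least 5.68-fold under day 0 and the low signal falling on the last array alone. A second TRAF5 probe set read 78.4, 143, 90.7 and 59.3 and was 1.32-fold lower at day 6. TRADD, an adaptor of the TNF receptor family, read 52.2, 27.9, 23.7 and 40.7, and its day 4 and day 6 signals were below background. Against the background the day 4 difference came to at least 1.63-fold. CD40, a receptor that feeds the noncanonical branch among others, had log2 ratios of 0.39, -0.01 and -0.84.

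The link from the B cell receptor to NF-kappa B stood lowest of the lists, by its medians. The lists were chosen with earlier results of these data known, so neither this rank nor the counts test the link. Of 9 genes listed 6 were tested, and 0, 2 and 3 were at least 2-fold lower at days 2, 4 and 6 and 0 higher, beside 2.97%, 5.12% and 8.35% lower over all tested genes, with medians of -0.37, -0.41 and -0.91. BTK, the Bruton kinase, read 1167, 651, 333 and 71.3, each array below the one before. PRKCB, a protein kinase C isoform of B cell receptor signalling, read 397, 286, 168 and 186 and was 2.37-fold lower at day 4 and 2.13-fold lower at day 6. Of its other 4 probe sets 3 also lay below day 0 at days 4 and 6, and the dimmest did not. Those 3 were 1.95-fold, 1.44-fold and 1.97-fold lower at day 6, so the day 6 call of PRKCB rested on the probe set used. SYK, the kinase at the receptor, was 3.10-fold lower at day 6, and 3.55-fold by its second probe set. BCL10, a signalling adaptor of the pathway, stood at -0.09, -0.18 and -0.24, and at 0.14, 0.13 and 0.34 by a second probe set above background on all arrays. PLCG2, the phospholipase of the receptor pathway, stood at 0.01, -0.25 and 0.30. Its other 5 tested probe sets differed, with log2 ratios from -1.46 to 0.29 at day 2 and from -0.07 to 0.71 at day 6.

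The kinases and adaptors that lead to I kappa B phosphorylation stayed nearer to day 0 than the B cell receptor link, by their medians. Of 12 listed, 11 had a probe set and all 11 were tested. At day 6 the 1 gene at least 2-fold lower was TAB1, an adaptor of the kinase MAP3K7, with 0 higher. That is 9.09% lower and 0% higher, beside 8.35% and 8.48% of all tested genes, so the share lower was near that of all genes. TAB1 read 297, 234, 321 and 108 at days 0, 2, 4 and 6, low on the last array alone. The catalytic kinases CHUK and IKBKB had day 6 log2 ratios of -0.23 and -0.73, and MAP3K14, the kinase of the noncanonical branch, at 0.03. TBK1 and TANK, a kinase and its adaptor, were 1.65-fold and 1.63-fold lower at day 6, but a second TBK1 probe set was 1.23-fold higher. The median of the list was -0.23, -0.09 and -0.54 at the 3 later days, beside -0.01, 0.0033 and -0.01 for all tested genes. At day 6, 9 of the 11 genes lay below day 0 and 2 above, beside 50.7% of all tested genes below. Only the B cell receptor link had a lower median. The sign could depend on the probe set. MAP3K7 stood at -0.17 at day 6 by the one used, and at 0.20, 0.27, -0.19 and -0.17 by its other tested probe sets.

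The other inhibitors and ubiquitin editors had 6 tested genes of 14, with medians of -0.28, -0.10 and -0.12. By the probe set used, 0 were at least 2-fold different in either direction at any day. Over all tested genes 2.42%, 5.77% and 8.48% were higher and 2.97%, 5.12% and 8.35% lower at days 2, 4 and 6. With 6 genes, a count of 0 does not set the list apart from these shares. TNIP2, a partner of A20, read 59.1, 41.7, 30.1 and 34.4, below background at days 4 and 6. N4BP1 read 381, 309, 345 and 283, 1.35-fold lower at day 6. The probe sets of ITCH, a ubiquitin ligase that works with A20, disagreed. By the one used, day 2 was 1.27-fold lower than day 0, day 4 was 1.30-fold lower and day 6 was 1.34-fold higher. A second was above day 0 on every later array, with bounds of at least 3.06-fold, 2.65-fold and 6.30-fold, and another gave 1.17-fold lower at day 2 and 2.60-fold higher at day 6. CYLD, which removes ubiquitin chains, had log2 ratios of -0.05, -0.06 and 0.36 by the probe set used, and its other 5 tested probe sets did not share a direction. At day 6, 1 of them was 2.20-fold lower and another 1.72-fold higher, and at day 4 a pair were 2.03-fold and 3.45-fold higher.

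Of 32 known target genes listed 14 were tested. At day 2, BCL2 and TRAF1 were at least 2-fold higher and IRF8 lower, beside 2.42% higher and 2.97% lower over all tested genes. At day 4, 0 of the 14 differed 2-fold in either direction, beside 5.77% higher and 5.12% lower. At day 6, 3 were higher, BCL2, CD83 and TNFRSF1B, and 1 was lower, IRF8, beside 8.48% and 8.35% of all tested genes, with list medians of 0.25, 0.02 and 0.04 at days 2, 4 and 6. BCL2, which protects cells from apoptosis, read 54.5, 119, 99.9 and 294, all later arrays above day 0. It was 2.18-fold higher at day 2 and 5.39-fold at day 6, but 1.05-fold and 2.12-fold by a second probe set above background on all arrays, so the day 2 call rested on the probe set used. IRF8, a transcription factor of B and myeloid cells, read 758, 351, 383 and 153, all later arrays below day 0. CD83, an activation marker of lymphocytes, was below background at days 2 and 4, at least 1.42-fold and 1.10-fold lower than day 0, and 2.20-fold higher at day 6. The log2 ratios of MYC were 0.33, 0.25 and 0.59, with BCL2L1 at -0.15, -0.45 and -0.41, and TRAF1, also an adaptor, at 1.06, -0.30 and 0.41.

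Over the 48 tested genes of all 5 lists, 2, 0 and 3 were at least 2-fold higher at days 2, 4 and 6 and 1, 4 and 7 were lower. These are 4.17%, 0% and 6.25% higher and 2.08%, 8.33% and 14.6% lower, beside the percentages over all tested genes given above. Of the 3 genes named in more than 1 list, TRAF1 and TNFRSF1B were tested, and each is counted once here. Of the 8 tested B cell markers, 0, 3 and 5 were at least 2-fold lower at days 2, 4 and 6. Over all tested genes the shares lower were 2.97%, 5.12% and 8.35%. BTK and SYK are counted here and in the B cell receptor link, so the lists are not separate. The 5 at day 6 were CD74, 32.3-fold lower, BTK, 16.4-fold, CD72, 12.1-fold, CD79B, 5.54-fold, and SYK, 3.10-fold. PAX5, POU2AF1 and JCHAIN were not 2-fold lower at any day, and JCHAIN was 1.09-fold higher at day 6.

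Of the other marker lists, T cell genes had 2 to 3 of 7 above background on each array. Their summed signal went from 2473 at day 0 to 1025 at day 6 and was nearly all CD3D. CD3E, CD4, CD28 and LCK were below background on every array. ZAP70 was above background at days 0, 2 and 4 and 2.21-fold higher at day 4 than at day 0. CD8A was above background at days 2 and 6, and at least 1.94-fold higher at day 6 than at day 0. The macrophage and granulocyte list had 3, 2, 2 and 1 of 6 above background at days 0, 2, 4 and 6 and summed signals from 115 to 187. MRC1, CSF3R and CEBPB were below background throughout. CSF1R was above it on all 4 arrays, at 56.5, 69.6, 40.8 and 123.3, and was 2.18-fold higher at day 6 than at day 0. The fibroblast and endothelial list had 3 to 5 of 8 above background, with sums of 196, 234, 497 and 1336 of which LUM made up 1069 at day 6. LUM and PECAM1 were above background on all 4 arrays, and CDH5 was below it throughout. The erythroid and thrombocyte list had HBAD above background at all days but 4 and GP9 at none, with summed signals from 23 to 70. The sums of these lists too lean on the brightest probe sets and are not amounts of RNA. The part of these markers in the family's values was not tested.

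**Figure D4:**
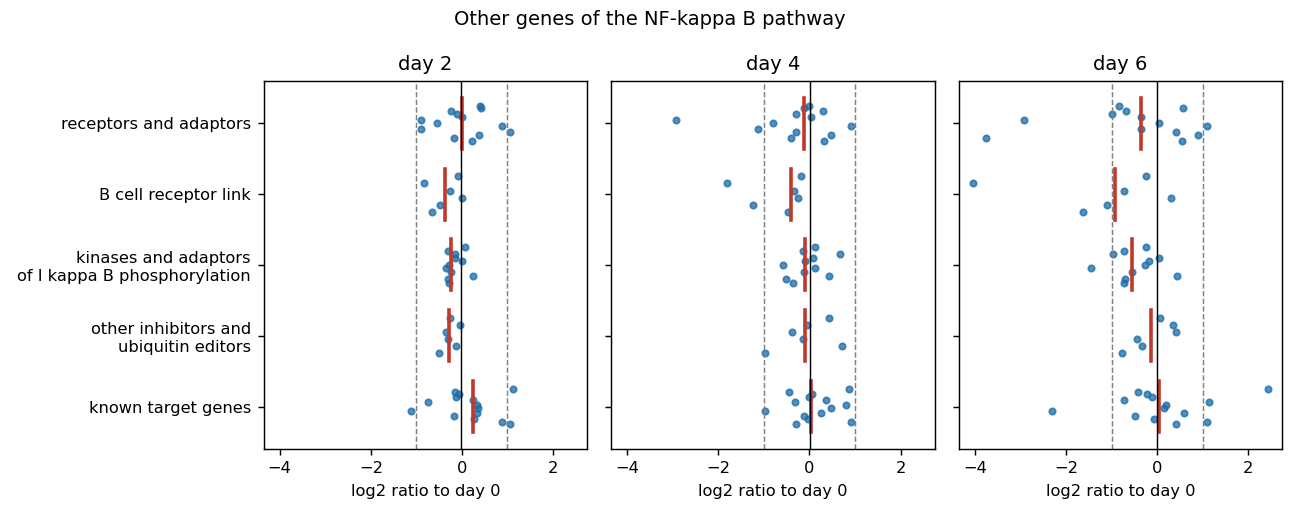
Log2 ratio to day 0 (horizontal axis) of each tested gene in 5 lists of the NF-kappa B pathway at days 2, 4 and 6, 1 point per gene, with red bars at list medians, a black line at the median of all tested genes and dashed lines at a 2-fold difference. At day 6 the B cell receptor link has the lowest median, -0.91, and the known targets spread on both sides, from IRF8 at -2.30 to BCL2 at 2.43.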

How the data were processed

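Each array is a GeneChip Chicken Genome Array hybridised with biotin-labelled cRNA from polyadenylated RNA, per the labels' protocols. The authors deposited 1 linear intensity for every probe set on every array, from GeneChip Operating Software 1.3 per the series' design text. The sources used here do not give its signal algorithm or scaling, and name no genome build, so no coordinates are given.

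From the 38535 probe sets the 96 controls were removed. A probe set was tested if its mean log2 value reached the overall median (a signal of 29.1), arrays were scaled to 1 median over these (factors of 0.859, 0.962, 1.02 and 1.19 for days 0, 2, 4 and 6), and scaled signals were floored at the 40th percentile, 19.4, before log2 ratios. A gene was represented by its tested probe set of highest mean. A ratio whose dimmer signal lay below its array's background is given as at least the brighter signal over that background, and as no fold where this is under 1. Signals and folds in the text are unfloored. The mean over all arrays, not a single day, decided which genes were tested.

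Single arrays allow no test between days. The trend over days used limma 3.58.1 in R 4.3.3 (lmFit, eBayes, 2-sided, Benjamini-Hochberg over all tested genes). The fit was also run on simulated straight lines with the same noise for every gene, which does not show its power on these data. Other steps used Python 3.11.15, numpy 2.4.6, pandas 2.3.3 and matplotlib 3.10.9. The members and lists were chosen with earlier results of these data known. Named were all members, from each list the 3 genes of largest absolute mean ratio, any gene 2-fold different in 1 direction at all 3 days (there were 0 such), and the 3 genes nearest to each of 2 members; other list genes were named after their values were seen.

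The alternatives changed the scaling (unscaled, quantile, 75th percentile, 27 spike-in controls), the filters, the floor (also a pseudocount of 29.1), the fold threshold and the probe sets counted (every probe set by itself, the mean of a gene's tested probe sets), and the trend fit (each day left out in turn, log2(day + 1) as the time scale, limma-trend). The probe sets counted were changed for the family alone, not for the pathway lists. Each tested family gene had a single tested probe set, so that change could not move its counts.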

Additional observations from a re-analysis of the deposited data

How the results depend on the processing

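With no replicates, results were compared by counts. Lower family genes at day 6 numbered 1 as reported, 4 unscaled, 2 with quantile normalization, 4 at a 1.5-fold threshold, and 0 with the 75th percentile filter, the 60th percentile floor, a pseudocount or a 3-fold threshold; at day 2 the 1.5-fold threshold gave 1 in place of 0. Pathway list genes unscaled numbered 0 higher and 4 lower at day 2, 7 lower at day 4, and 1 higher and 18 lower at day 6. Quantile normalization gave 1 higher at day 2 and 11 lower at day 6, and spike-in scaling 1 higher at day 2 and 5 higher and 2 lower at day 4. No filter gave 2 higher at day 4 and 7 at day 6, and the 75th percentile filter 1 higher at day 2 and 2 lower at day 4. A pseudocount gave 0 higher at day 2 and 1 at day 6. At 1.5-fold the counts were 6 lower at day 2, 5 higher and 8 lower at day 4, and 5 higher and 17 lower at day 6; at 3-fold, 0 higher and 0 lower at day 2, 2 lower at day 4 and 1 higher at day 6. A higher fold threshold or filter counts fewer genes by construction; the cause of the other changes was not tested. The trend called 0 genes, and 604 with limma-trend. No paired analysis was possible because each day has a single array. The other 120 counts were unchanged or stayed within 1.5 times, and many of them were 0 under both settings. Dim probe sets limit NFKB2, NFKBIE, RELA and TNFAIP3, which lay at or under background on 2, 1, 4 and 4 arrays.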
